A study of Homo sapiens with 6 samples.

Results

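The 10 genes of transforming growth factor beta (TGF-beta) signalling described here were picked by gene symbol from an RNA sequencing study of LX-2 cells. They were the 3 ligands TGFB1, TGFB2 and TGFB3, the 3 receptors TGFBR1, TGFBR2 and TGFBR3, and the signal transducers SMAD2, SMAD3, SMAD4 and SMAD7. All 10 had a row among the 24789 rows with values, and all 10 passed the filter on low counts. LX-2 is an established human line derived from hepatic stellate cells, the liver cells that turn into matrix-producing myofibroblasts after injury. One group received an siRNA against AEBP1, a gene for a collagen-binding matrix protein, and the other a scrambled siRNA. Each was used at 50 nM for 48 hours with a lipid transfection reagent, and no untransfected cells or second AEBP1 siRNA were among the samples. There were 3 libraries per group. No label says whether they came from separate transfections, so the p-values rest on a spread among libraries that may be technical.

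TGF-beta ligands are secreted as latent complexes and, once freed, bind the receptor kinase TGFBR2, which then phosphorylates the kinase TGFBR1. TGFBR3, or betaglycan, is a co-receptor without a kinase that presents ligand, above all TGF-beta 2. TGFBR1 phosphorylates SMAD2 and SMAD3, which join SMAD4 and act on genes in the nucleus, while SMAD7 is an inhibitor induced by the pathway itself. In the liver this pathway is best known for driving stellate cells to make collagen. The data give RNA levels only, not ligand release, receptor activity or SMAD phosphorylation.

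Counts per library totalled 34433510 to 49432960. AEBP1 did not follow the labels. It was at 53.6, 48.7 and 25.1 CPM (per-library scaled counts, with edgeR effective library sizes) in scrambled 1, 2 and 3, as labelled, and at 29.7, 27.7 and 48.3 CPM in AEBP1 siRNA 1, 2 and 3. The library labelled scrambled 3 was thus lower in AEBP1 than all 3 labelled AEBP1 siRNA. Groups are kept as labelled throughout, and an exchange of labels between scrambled 3 and AEBP1 siRNA 3, which would change every group mean and fold change, was not tested. Over all genes, the pair of libraries that differed least was scrambled 3 and AEBP1 siRNA 2, at 7.80 for the chi-square over its degrees of freedom. Next came scrambled 2 and AEBP1 siRNA 3, at 9.22, and scrambled 1 and AEBP1 siRNA 3, at 12.9. These pairs crossed the labels, while scrambled 1 and 2 were at 14.6 and AEBP1 siRNA 2 and 3 at 23.6. AEBP1 siRNA 1 stood apart, with a first principal component score of 65.9 where the other libraries lay between -17.3 and -5.74. Of 12 stellate cell markers 9 were tested. Summed over all 12, the level was 2789 to 3157 CPM under the scrambled label and 2805 to 3197 CPM under the AEBP1 siRNA label. COL1A1 and VIM made up most of it, with means of 1543 and 1131 CPM in the libraries labelled scrambled. In the same libraries ACTA2, COL1A2 and HAND2 had means of 3.85, 3.91 and 1.26 CPM. LRAT, the retinol esterifying enzyme of resting stellate cells, had no count in any library, and DES and DCN were below 1 CPM. Of 7 hepatocyte, 6 epithelial, 7 leukocyte and 6 endothelial markers, 6, 4, 5 and 5 were below 1 CPM, among them ALB, EPCAM, PTPRC and PECAM1. The others were SERPINA1 (hepatocyte), KRT7 and SOX9 (epithelial), CD68 and CD14 (leukocyte) and TEK (endothelial). In the libraries labelled scrambled their means were 6.86, 16.3, 16.5, 19.3, 1.92 and 1.31 CPM. SERPINA1, KRT7, SOX9 and CD68 were there above the stellate cell markers ACTA2, COL1A2 and HAND2. They were below the other tested stellate cell markers, among them TAGLN, TIMP1, PDGFRB and COL3A1 at 149, 135, 34.0 and 31.1 CPM. In such bulk RNA, fewer cells of a type and less RNA per cell cannot be told apart.

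Per transcript length, the 3 most abundant members were a ligand, a receptor and a SMAD at nearly the same level. Levels are given here in the deposited FPKM (fragments per kilobase, scaled to the library), as lowest, median and highest of 6 libraries. TGFB1 was at 24.2, 26.3 and 34.0 FPKM. SMAD3 was at 21.0, 28.3 and 31.1 FPKM, and TGFBR2 at 22.2, 27.4 and 29.4 FPKM. The ranges of these 3 overlapped, so no order among them held beyond their spread. TGFBR1 followed with 16.1, 18.5 and 24.0 FPKM, and SMAD4 with 15.7, 18.2 and 18.6 FPKM. These overlapped each other, and TGFBR1 also overlapped TGFBR2 and SMAD3. A lower set held SMAD7 at 9.53, 10.1 and 10.7 FPKM, TGFB2 at 8.24, 9.43 and 12.2 FPKM, and SMAD2 at 6.97, 8.05 and 10.3 FPKM. These ranges also overlapped, and all lay below that of SMAD4. SMAD2 was lower only per length, since its mean over the 6 libraries was 165 CPM, beside 169 CPM for SMAD3. TGFBR3 was at 1.43, 1.99 and 2.76 FPKM, and TGFB3 was the lowest member in every library, at 0.810, 1.04 and 1.24 FPKM.

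None of the 10 members passed the threshold between the labelled groups. Counts were compared with edgeR's quasi-likelihood test, and genes with a Benjamini-Hochberg adjusted p under 0.05 over all 16250 genes tested were called. That call was made for 0.00615% of the genes tested, a single gene that is no member (SENP3-EIF4A1). Of the members, 0 had an unadjusted p under 0.05, where 1.33% of all genes did, and DESeq2 and limma-voom also called 0 members. Estimates were lower in the libraries labelled AEBP1 siRNA for 8 members and higher for 2, with a median log2 fold change of -0.052. Over all genes tested the median was -0.0023, and 50.6% of estimates were lower. Without AEBP1 siRNA 1, the estimates were lower for 5 members and higher for 5, and their median was 0.0091.

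**Figure D1:**
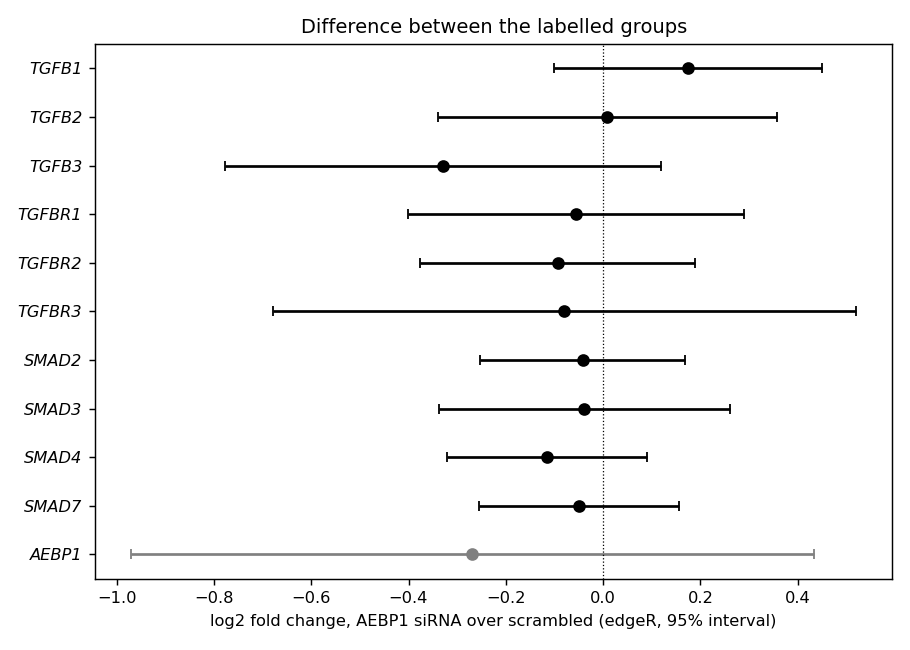
Log2 fold changes of the 10 members and of AEBP1 (grey) between libraries labelled AEBP1 siRNA and scrambled, from edgeR on 3 libraries per group. Points are estimates and bars their 95% intervals, and every interval includes 0.

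Among the ligands, TGFB1 (ENSG00000105329, chromosome 19), the form most tied to fibrosis, was at 83.0, 74.2 and 79.5 CPM in scrambled 1, 2 and 3. It was at 104, 81.7 and 81.5 CPM in AEBP1 siRNA 1, 2 and 3. AEBP1 siRNA 1 was above all other libraries, while the other two labelled AEBP1 siRNA lay within the range of the scrambled ones. The scrambled mean was 78.9 CPM ± 4.45 (SD, n = 3) and the AEBP1 siRNA mean 89.1 CPM ± 12.9 (SD, n = 3), which gave an estimate of 0.17 on the log2 scale (SE 0.120, 95% interval -0.10 to 0.45, edgeR adjusted p = 0.991). Without AEBP1 siRNA 1 it was 0.048. TGFB1 overlaps other genes on the opposite strand, HNRNPUL1 and CCDC97 among them, and whether reads were counted by strand is not stated, so reads in the overlaps cannot be told apart.

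TGFB2 (ENSG00000092969, chromosome 1), the form that depends most on betaglycan, was at 46.7, 52.0 and 68.2 CPM in scrambled 1, 2 and 3, and at 52.2, 62.2 and 53.5 CPM in AEBP1 siRNA 1, 2 and 3. It was highest in scrambled 3 and next highest in AEBP1 siRNA 2, so 1 library of each label stood above the rest and the groups overlapped. Between groups the estimate was 0.0086 (log2, 95% interval -0.34 to 0.36, edgeR adjusted p = 0.997). Its sign turned in 3 of the 6 fits that left out a library, with values of -0.10 without scrambled 1, -0.038 without scrambled 2 and -0.074 without AEBP1 siRNA 2.

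TGFB3 (ENSG00000119699, chromosome 14) had few reads, 138, 145 and 151 counts in scrambled 1, 2 and 3 and 90, 108 and 95 counts in AEBP1 siRNA 1, 2 and 3. In CPM these were 3.36, 2.95 and 3.45 against 2.59, 2.87 and 2.30. By CPM all 3 libraries labelled AEBP1 siRNA were below all 3 labelled scrambled, as was the case for 2.9% of the genes tested. The estimate was -0.33 (log2, SE 0.195, 95% interval -0.78 to 0.12, edgeR adjusted p = 0.991), the estimate furthest from 0 among the members. By FPKM the groups overlapped, at 1.21, 1.03 and 1.24 against 0.916, 1.06 and 0.810. The exact two-sided permutation p was 0.1 by CPM, the smallest that 3 against 3 can give, and 0.2 by FPKM. TGFB3 overlaps IFT43 on the opposite strand, which had 329 to 504 counts per library, so the same limit on reads in overlaps holds here.

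The reference letters before the listed starts of TGFB1, TGFB2 and TGFBR3 are shown because the last 2 were high in the same pair of libraries and TGFB1 was not. This choice was made with the values known. TGFBR1 was high in the same pair but is not shown, with 8 listed starts where TGFB1, TGFB2 and TGFBR3 have 1 each. The letters come from RefSeq on GRCh38.p14, read 5′ to 3′ towards the gene. They end 1 base before the start (TGFB1, TGFB2) or 129 bases before it (TGFBR3). Capitals mark CAGACA, which contains a core letter run bound by SMAD3 and SMAD4, and GGGCGG, the GC box, both searched on both strands. No capital stretch belongs to both.
TGFB1, chr19:41353923-41354168, minus strand: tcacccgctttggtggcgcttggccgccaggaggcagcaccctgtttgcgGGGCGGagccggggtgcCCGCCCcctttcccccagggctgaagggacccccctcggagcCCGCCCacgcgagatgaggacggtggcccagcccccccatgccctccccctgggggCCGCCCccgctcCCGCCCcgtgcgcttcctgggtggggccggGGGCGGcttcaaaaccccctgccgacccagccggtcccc
TGFB2, chr1:218345086-218345335, plus strand: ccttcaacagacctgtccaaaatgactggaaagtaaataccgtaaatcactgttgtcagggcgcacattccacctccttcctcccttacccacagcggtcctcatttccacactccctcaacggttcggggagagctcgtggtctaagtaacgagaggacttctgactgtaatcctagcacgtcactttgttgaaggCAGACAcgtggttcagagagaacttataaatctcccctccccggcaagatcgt
TGFBR3, chr1:91886280-91886401, minus strand: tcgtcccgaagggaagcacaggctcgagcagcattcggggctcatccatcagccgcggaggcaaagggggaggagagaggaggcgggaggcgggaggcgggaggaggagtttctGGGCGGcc
TGFB1 had 6 GC boxes in this stretch and 0 matches to CAGACA, TGFB2 had 1 match to CAGACA and 0 GC boxes, and TGFBR3 had 1 GC box and 0 matches to CAGACA. Of 35116 windows of 250 bases before listed starts of all genes, 13.6% held CAGACA and 42.6% held GGGCGG. The stretches of TGFBR3 and TGFB1 were shorter, at 122 and 246 bases, so for TGFBR3 above all these shares are no like background. Among the windows of TGFBR1, some held CAGACA and some held GGGCGG. Such matches describe letters only, and no binding was measured.

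**Figure D2:**
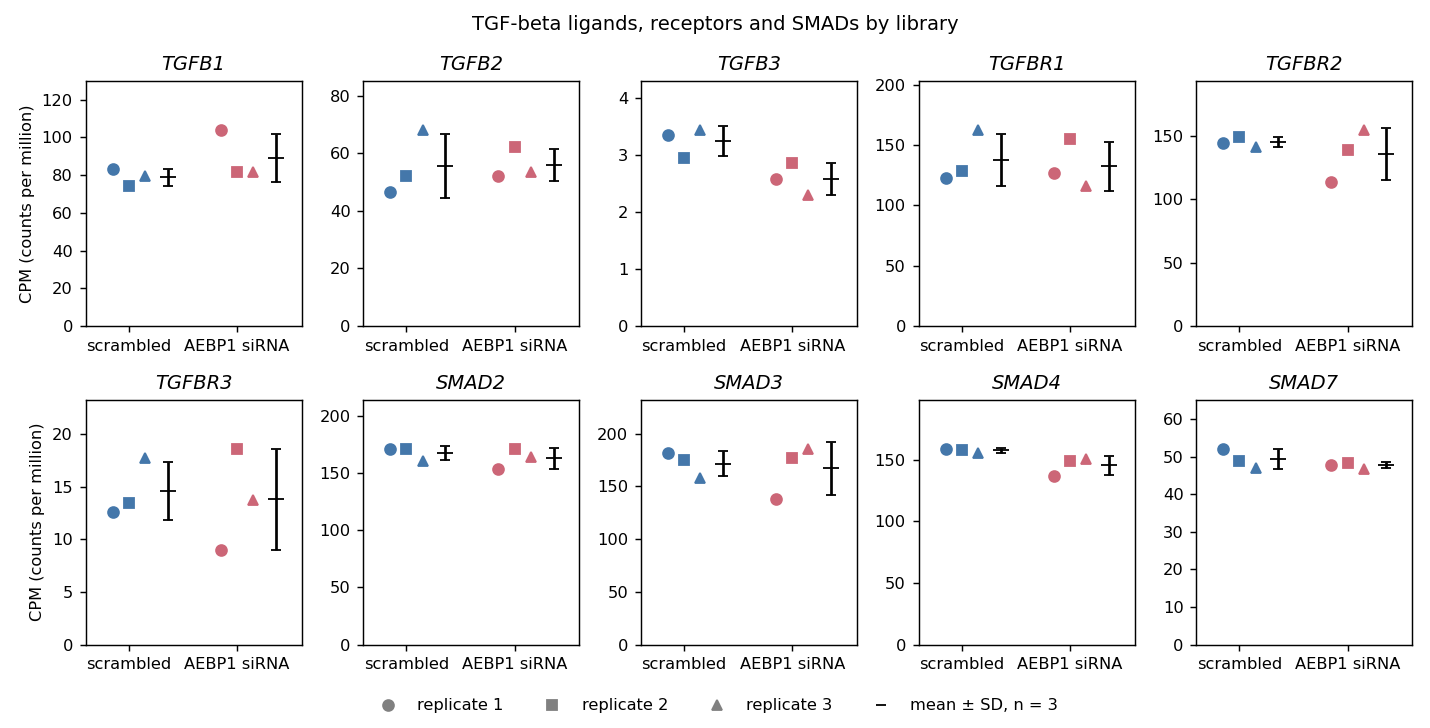
CPM of each member in each library, with a linear axis from 0. Symbols give the replicate number, colours the labelled group, and black bars the mean ± SD of 3 libraries. Only for TGFB3 and SMAD4 do the labelled groups not overlap.

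Of the receptors, TGFBR1 (ENSG00000106799, chromosome 9), the kinase that acts on SMADs, was at 123, 128 and 162 CPM in scrambled 1, 2 and 3. It was at 126, 155 and 116 CPM in AEBP1 siRNA 1, 2 and 3. The highest libraries were again scrambled 3 and AEBP1 siRNA 2, and the groups overlapped. TGFBR1 thus had an estimate of -0.056 (log2, SE 0.150, 95% interval -0.40 to 0.29, edgeR adjusted p = 0.991). It was 0.080 without scrambled 3 and 0.032 without AEBP1 siRNA 3.

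TGFBR2 (ENSG00000163513, chromosome 3), the kinase that binds ligand first, was at 144, 149 and 142 CPM in scrambled 1, 2 and 3 and at 114, 139 and 155 CPM in AEBP1 siRNA 1, 2 and 3. The libraries labelled scrambled lay close together, and those labelled AEBP1 siRNA lay on both sides of them. The former averaged 145 CPM ± 3.76 (SD, n = 3) and the latter 136 CPM ± 20.6 (SD, n = 3). On the log2 scale the difference was -0.094 (95% interval -0.38 to 0.19, edgeR adjusted p = 0.991), and 0.019 without AEBP1 siRNA 1.

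TGFBR3 (ENSG00000069702, chromosome 1), the co-receptor betaglycan, varied most. It was at 12.6, 13.4 and 17.8 CPM in scrambled 1, 2 and 3, and at 9.03, 18.6 and 13.8 CPM in AEBP1 siRNA 1, 2 and 3. The lowest and the highest library both carried the AEBP1 siRNA label, and the highest was 2.06 times the lowest. The standard deviation of its log2(CPM + 0.5) over the 6 libraries was 0.363, larger than that of 93.9% of 11594 genes whose mean reached 5 CPM. The difference between groups was -0.080 (log2, SE 0.261, 95% interval -0.68 to 0.52, edgeR adjusted p = 0.991). It was 0.15 without AEBP1 siRNA 1 and 0.085 without scrambled 3.

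The SMADs varied less, apart from SMAD3. SMAD2 (ENSG00000175387, chromosome 18) was at 171, 171 and 160.5 CPM in scrambled 1, 2 and 3 and at 153, 171 and 164 CPM in AEBP1 siRNA 1, 2 and 3. The groups overlapped, with a log2 fold change of -0.042 (95% interval -0.25 to 0.17, edgeR adjusted p = 0.991), and -0.00037 without AEBP1 siRNA 1. SMAD3 (ENSG00000166949, chromosome 15), its partner as a receptor-activated SMAD, was at 182, 175 and 158 CPM against 138, 177 and 186 CPM. AEBP1 siRNA 1 was the lowest library and AEBP1 siRNA 3 the highest, and the log2 fold change was -0.038 (95% interval -0.34 to 0.26, edgeR adjusted p = 0.991). It was 0.081 without AEBP1 siRNA 1 and 0.0043 without scrambled 1.

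SMAD4 (ENSG00000141646, chromosome 18), the partner shared by all activated SMADs, was at 159, 158 and 155 CPM in scrambled 1, 2 and 3 and at 137, 149 and 151 CPM in AEBP1 siRNA 1, 2 and 3. By CPM all libraries labelled AEBP1 siRNA were below all labelled scrambled, by little except in AEBP1 siRNA 1. Its estimate was -0.12 (log2, SE 0.0892, 95% interval -0.32 to 0.089, edgeR adjusted p = 0.991), and -0.072 without AEBP1 siRNA 1. By FPKM the groups overlapped, since AEBP1 siRNA 2 was the highest library at 18.6 FPKM. Together with TGFB3, 2 of 10 members did not overlap between groups by CPM, both lower, where 2.9% of genes tested were lower without overlap, 3.03% higher and 5.93% either. By FPKM the count was 0 of 10 members, beside 2.79% of genes tested that were lower, 3.43% higher and 6.22% either.

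SMAD7 (ENSG00000101665, chromosome 18), the inhibitor that the pathway induces, varied least. It was at 52.2, 48.8 and 46.9 CPM in scrambled 1, 2 and 3 and at 47.9, 48.3 and 46.8 CPM in AEBP1 siRNA 1, 2 and 3. Among genes whose mean reached 5 CPM, 4.59% had a smaller standard deviation over the 6 libraries. Between groups it differed by -0.049 (log2, SE 0.0894, 95% interval -0.25 to 0.16, edgeR adjusted p = 0.991), and -0.0068 without scrambled 1.

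For SMAD2 the deposited counts and the deposited FPKM told the libraries apart differently. By FPKM it was at 8.04, 8.78 and 10.3 in scrambled 1, 2 and 3 and at 6.97, 8.06 and 7.04 in AEBP1 siRNA 1, 2 and 3. Scrambled 3 was thus the highest library by FPKM, while by CPM it was among the 2 lowest. The counts behind 1 FPKM, divided by the median of the same quantity over genes, were taken as a relative transcript length behind FPKM. For SMAD2 it was 4.37 in scrambled 3 and between 5.46 and 6.5 in the other 5 libraries. Its largest value was 1.49 times its smallest, a wider ratio than for 97.7% of 11407 genes with at least 100 counts in every library, whose median was 1.04. For the other 9 members this ratio was between 1.01 and 1.11. On the log2(FPKM + 0.1) scale the SMAD2 difference between groups was -0.29, and on the log2(FPKM + 1) scale -0.26, with limma adjusted p-values of 0.991 and 0.992. The exact permutation p was 0.2 by FPKM and 0.6 by CPM. The transcripts behind each SMAD2 value are not named, and the part of transcript usage in this gap was not tested.

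**Figure D3:**
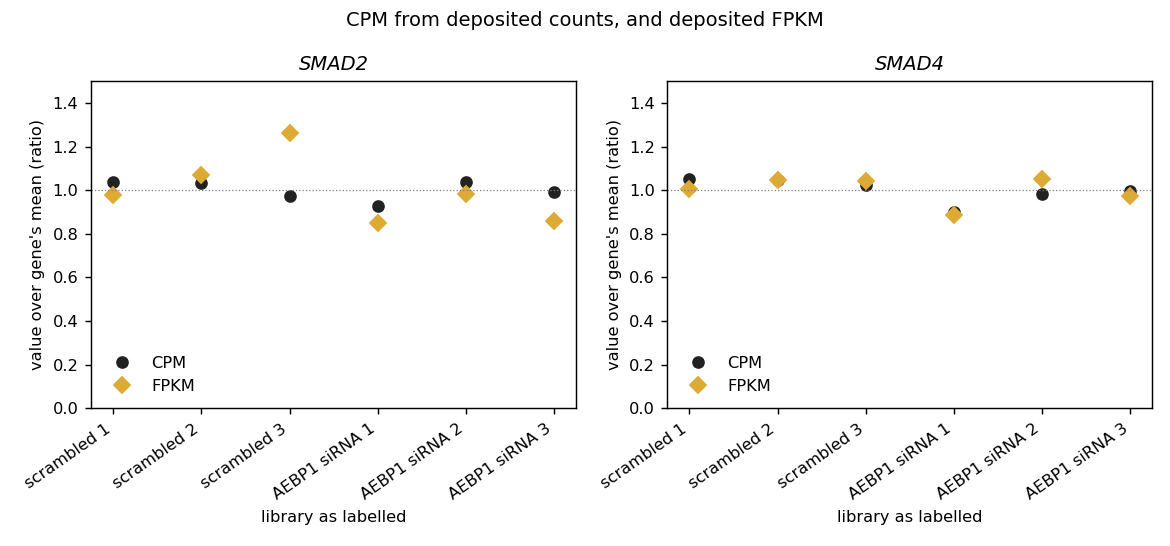
SMAD2 and, for comparison, SMAD4 in each library as a ratio to the gene's mean of 6 libraries, in CPM from the deposited counts (black circles) and in deposited FPKM (yellow diamonds). For SMAD2 the units part most in scrambled 3, where FPKM is the highest of the 6 libraries and CPM is not. For SMAD4 they stay close.

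Within each library, the balance among the members was compared through 4 ratios of FPKM values, which need no scaling between libraries. TGFB1 made up 73.8%, 70.2% and 65.7% of the summed ligand FPKM in scrambled 1, 2 and 3, and 76.6%, 68.6% and 71.7% in AEBP1 siRNA 1, 2 and 3. The lowest share was in scrambled 3, where TGFB2 was highest. TGFBR3 made up 3.82%, 4.09% and 4.72% of receptor FPKM in scrambled 1, 2 and 3 and 3.45%, 5.30% and 4.10% in AEBP1 siRNA 1, 2 and 3. The log2 ratio of SMAD3 to SMAD2 was 1.87, 1.74 and 1.28 against 1.59, 1.75 and 2.14. The log2 ratio of the inhibitor SMAD7 to the summed SMAD2 and SMAD3 was -1.80, -1.90 and -1.85 against -1.49, -1.79 and -2.0. For each of the 4 ratios the groups overlapped, with exact two-sided permutation p-values of 0.5, 0.9, 0.5 and 0.7 (each 0.9 after Benjamini-Hochberg adjustment over the 4). With counts not divided by length, the log2 ratio of SMAD3 to SMAD2 was itself near 0, at 0.085, 0.034 and -0.020 against -0.15, 0.050 and 0.18. Its level above 0 by FPKM thus depended on the lengths behind FPKM. The difference in this ratio between groups was -0.0052 with such counts in place of 0.20. It was -0.14 by FPKM without the libraries numbered 3.

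Of the 10 members, 9 were below their own mean over the 6 libraries in AEBP1 siRNA 1, 8 in AEBP1 siRNA 3, 5 in AEBP1 siRNA 2 and 4 in each library labelled scrambled. How many of all genes were below their own mean in each library was not computed, so these counts have no background. TGFB2, TGFBR1 and TGFBR3 were each above their own mean in scrambled 3, by 0.30, 0.28 and 0.35 on the log2(CPM + 0.5) scale, and in AEBP1 siRNA 2, by 0.17, 0.21 and 0.42. These are a ligand, its signalling receptor and its co-receptor, but the same pair of libraries also stood apart over all genes. On the second principal component the pair scored -25.96 and -34.08, where the other libraries lay between -1.991 and 29.95. The share of all genes that were high in this pair was not computed, so a pattern particular to these members was not tested. AEBP1 was below its own mean in both libraries, by -0.55 and -0.42, and also in AEBP1 siRNA 1, by -0.32, where these 3 members were at -0.085, -0.084 and -0.59. In AEBP1 siRNA 1, TGFBR2 and SMAD3 were at -0.30 and -0.28, while TGFB1 was at 0.31. That library also stood apart over all genes, and the part of this in the members' values was not tested. SMAD2, SMAD4 and SMAD7 stayed within -0.15 and 0.11 in all 6 libraries.

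**Figure D4:**
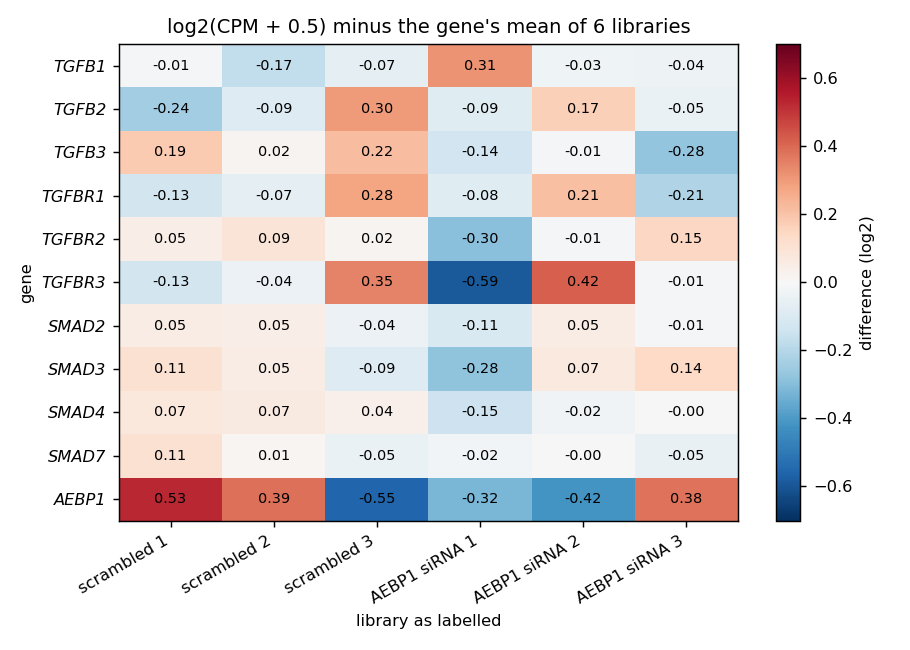
Difference of each gene's log2(CPM + 0.5) from its own mean of 6 libraries, with red above and blue below the mean, for the 10 members and AEBP1. TGFB2, TGFBR1 and TGFBR3 are highest in scrambled 3 and AEBP1 siRNA 2. In AEBP1 siRNA 1, 9 of the 10 members are below their mean, and the share over all genes was not computed.

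Leaving out the libraries in which AEBP1 goes against the label turned the sign of 2 members and called 0. Without these, both numbered 3, TGFBR1 was at 0.17 and TGFBR3 at 0.087, and the edgeR adjusted p-values of the members were at least 0.967. With AEBP1 siRNA 1 left out as well, a fit whose only AEBP1 siRNA library borrows its spread from the other group, 249 genes or 1.46% of 17050 were called and 0 of them were members. In that fit TGFB2, TGFBR1 and TGFBR3 had log2 fold changes of 0.33 (SE 0.105), 0.31 (SE 0.0913) and 0.52 (SE 0.177), with edgeR adjusted p-values of 0.212, 0.176 and 0.259. Their unadjusted p-values were under 0.05, as were those of 12.2% of genes tested. SMAD2 and SMAD3 were at 0.00081 and -0.0091.

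The genes around the members, in 4 lists, also had 0 called genes by edgeR, DESeq2 and limma-voom. Of 19 genes that store or activate latent TGF-beta, all were tested, 0 had an unadjusted p under 0.05, and 15 had lower estimates (median log2 fold change -0.057). The 4 most abundant per length were ITGB1, an integrin chain, FURIN, the protease that cuts the ligand precursors, PLAT, a plasminogen activator, and LTBP4, a latent TGF-beta binding protein. ITGB1 was at 212 FPKM in libraries labelled scrambled and 211 in those labelled AEBP1 siRNA, and FURIN was at 26.1 and 25.1. PLAT was at 23.7 and 23.1 FPKM and LTBP4 at 22.5 and 22.5 FPKM. The median was 0.013 without AEBP1 siRNA 1.

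In the activin and bone morphogenetic protein (BMP) arm, 26 of 31 genes were tested, 15 with lower estimates (median -0.050). Without AEBP1 siRNA 1, 9 were lower and 18 higher of the 27 then tested (median 0.042), and without scrambled 1 the median was 0.0064. The 4 most abundant were GREM1, a secreted BMP antagonist, at 46.8 and 47.7 FPKM in the 2 groups, FSTL3, which binds activin, at 29.2 and 31.5 FPKM, SMAD5, a BMP-activated SMAD, at 31.1 and 28.9 FPKM, and ENG, the co-receptor endoglin, at 25.7 and 27.6 FPKM. Only ACVR1C, a type I activin receptor, had an unadjusted p under 0.05 (0.0110, edgeR adjusted p = 0.991). It was at 0.487, 1.12 and 0.730 CPM in scrambled 1, 2 and 3 and 0.201, 0.186 and 0.339 CPM in AEBP1 siRNA 1, 2 and 3, a level of few reads. By both CPM and FPKM the groups did not overlap for ACVR1C, which was lower in the libraries labelled AEBP1 siRNA. The same held for BAMBI, a decoy receptor of the pathway, and FST, the activin binder follistatin, both higher in those libraries. BAMBI was at 3.46, 3.53 and 2.83 FPKM against 4.31, 3.86 and 4.0 FPKM, and FST at 7.79, 8.48 and 9.20 against 10.4, 9.25 and 9.33 FPKM. INHBB, a subunit of activin B, did not overlap by FPKM alone, at 1.40, 1.41 and 1.43 FPKM against 1.68, 1.44 and 1.62 FPKM. The edgeR adjusted p-values of these genes were 0.991. Of all genes tested, 3.43% were higher without overlap by FPKM and 3.03% by CPM, and 2.79% were lower by FPKM and 2.9% by CPM. ACVR1C, BAMBI, FST and INHBB were picked with their values already known.

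Of 30 regulators and partners of receptors and SMADs, 29 were tested, 0 with an unadjusted p under 0.05 and 19 with lower estimates (median -0.069, and 0.0074 without AEBP1 siRNA 1). The most abundant were the GTPase RHOA at 285 and 301 FPKM, the immunophilin FKBP1A at 229 and 248, the transcription factor JUN at 109 and 118, and STRAP, a receptor-associated inhibitor, at 85.6 and 89.5. SMURF2 and USP15, picked with their values known, were lower without overlap by FPKM but not by CPM. Of all genes tested, 2.79% were lower without overlap by FPKM.

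TGF-beta response genes, a list of 35 usual targets, had 32 tested, 0 with an unadjusted p under 0.05, and 20 with higher estimates (median 0.061). Fibronectin (FN1) was at 258, 297 and 255 FPKM against 144, 218 and 296 FPKM, lowest in AEBP1 siRNA 1 (log2 fold change -0.34, SE 0.236, edgeR adjusted p = 0.991). COL1A1, a fibrillar collagen gene, had 204 and 197 FPKM, and TIMP1, an inhibitor of matrix proteases, had 133 and 140 FPKM in the 2 groups. NOX4 and ELN had no count in any library. CNN1 and SNAI1, picked with their values known, were higher without overlap by FPKM but not by CPM. Of all genes tested, 3.43% were higher without overlap by FPKM. Without AEBP1 siRNA 1 alone, 23 estimates were higher and 9 lower (median 0.025). Without both libraries numbered 3 and AEBP1 siRNA 1 the median of the list was -0.036.

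For the most abundant ligand, receptor and SMAD, the genes closest in pattern were sought among the 11067 genes whose mean reached 5 CPM and that had an Ensembl ID and a symbol. Likeness was the root mean square difference of centred log2(CPM + 0.5) over the 6 libraries. Closest to TGFB1 were TAF9, APEX1 and SLC25A38, with differences of 0.016, 0.020 and 0.021. TAF9, a subunit of general transcription factor TFIID, was highest in AEBP1 siRNA 1 as TGFB1 was, at 216 CPM against 157 to 175 CPM elsewhere. Closest to TGFBR2 were MB21D2, SLC35F5 and ARHGAP19, with 0.020, 0.026 and 0.027. Closest to SMAD3 were SLC35E3, MME and SNX33, with 0.028, 0.032 and 0.033. All 6 of the latter were lowest in AEBP1 siRNA 1. MME, a membrane peptidase, was there at 71.3 CPM against 83.8 to 92.6 CPM elsewhere.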

How the data were processed

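The authors deposited raw counts and FPKM per gene and library in a single table, per the file headers. The submitters' processing notes name hg19 as the build, and neither aligner, counting program, annotation nor strand setting was named in the sources used here. Per the labels' protocols, libraries were made from 1 μg of RNA with an mRNA kit. Of 24789 rows with values, 19974 had an Ensembl ID, 4815 were loci assembled outside the annotation, 17 lines without values were dropped and 27 symbols turned into dates were restored by ID.

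Counts were filtered with filterByExpr, scaled by trimmed mean of M values and compared between groups, with no other term, by the quasi-likelihood test of edgeR 4.0.16 (R 4.3.3). A standard error is the log2 fold change over the square root of F. Ratios within libraries used exact two-sided permutation tests over 6 libraries. On simulated counts (15954 genes after filtering), 23.9% of 1.5-fold, 88.1% of 2-fold and 100% of 4-fold changes were recovered, and 13 unchanged genes were called. The members, lists and tests were chosen with earlier results of these data known. The text names all members, AEBP1, the 4 tested genes of highest mean FPKM per list and the 3 genes closest in pattern to the most abundant ligand, receptor and SMAD. One gene that this rule names is not reported here. Promoter letters are from RefSeq (GRCh38.p14), which lists starts for all 10 members. A stretch was ended where a protein-coding exon of GENCODE began. Alternatives used limma 3.58.1 and DESeq2 1.42.0, other scaling and filters, FPKM, a replicate block, and libraries left out.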

Additional observations from a re-analysis of the deposited data

How the results depend on the processing

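Of the values under alternatives for counts of calls and ratios, 50 stayed on their side, 9 counts moved and 7 ratios turned sign, and for members and lists 215 stayed, 3 list medians moved, and 15 members' estimates and 5 list medians turned sign. Members called were 0 under all 17 alternatives. Against 1 gene called in all, no filter gave 3, DESeq2 6, limma-voom 2, log2(FPKM + 0.1) 3, single libraries left out 0 to 2, and both libraries numbered 3 with AEBP1 siRNA 1 left out 249. Same-numbered libraries' deviations from group means correlated at 0.096, -0.0078 and -0.10, so the numbers gave no sign of pairing, and the replicate block gave 2 genes and 0 members. Without single libraries, estimates ran from -0.10 to 0.18 for TGFB2, -0.19 to 0.080 for TGFBR1, -0.20 to 0.019 for TGFBR2, -0.36 to 0.15 for TGFBR3 and -0.12 to 0.081 for SMAD3. Over the same fits SMAD2 ran from -0.079 to -0.00037 and SMAD7 from -0.083 to -0.0068, and list medians from -0.11 to 0.013 (storage), -0.083 to 0.042 (activin and BMP) and -0.11 to 0.0074 (regulators). The median of the response genes ran from 0.025 to 0.069 over these fits. Without both libraries numbered 3, TGFBR1 was at 0.17 and TGFBR3 at 0.087, and with AEBP1 siRNA 1 also left out they were at 0.31 and 0.52, and SMAD2 at 0.00081, with a median of -0.036 for the response genes. The differences of ratios between groups ran from -0.44 to 0.49 percentage points for the TGFBR3 share and -0.047 to 0.21 (log2) for SMAD7 to SMAD2 plus SMAD3 without single libraries. With counts not divided by length they were -0.077, -0.0052 (SMAD3 to SMAD2) and -0.0036, and SMAD3 to SMAD2 was -0.14 without both libraries numbered 3. The cause of these turns was not tested. At 3 libraries per group, 95% intervals of the members spanned from 0.41 (SMAD4) to 1.20 (TGFBR3) on the log2 scale.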

Other observations

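CCN2, listed in the deposited table as CTGF, is a matricellular target of TGF-beta and was looked at after its values were seen. It was at 75.3, 74.4 and 94.8 CPM in scrambled 1, 2 and 3 and at 100.5, 90.2 and 74.9 CPM in AEBP1 siRNA 1, 2 and 3. The 3 libraries at 90.2 CPM or more were those in which AEBP1 was at 25.1, 29.7 and 27.7 CPM. Among them, scrambled 3 and AEBP1 siRNA 2 were the least different pair over all genes, and AEBP1 siRNA 1 stood apart over all genes. The share of all genes that part the libraries in this way was not computed, and a link between AEBP1 and CCN2 was not tested. Between the labelled groups CCN2 differed by 0.12 (log2, SE 0.143, edgeR adjusted p = 0.991). AC011462.1, which overlaps TGFB1 on the opposite strand, had 104 counts in scrambled 3 and 0 in each of the other 5 libraries.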
